A study of Homo sapiens with 4 samples.

Results

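ChIP-seq, the sequencing of DNA pulled down with an antibody, was used to map CTCF and histone H3 acetylated at lysine 27 (H3K27ac). The cells were DU145, an established human prostate cancer cell line from a brain metastasis, fixed with formaldehyde and sonicated. The series holds 4 libraries: CTCF, H3K27ac and input chromatin of DU145, and input chromatin of LNCaP, another prostate cancer line. The labels name no drug, genotype change or time point for any of them, and the input libraries were not analysed here. The peak lists describe 1 library for each mark, so no value has a replicate error and no test between conditions exists. The regions described here are CTCF summits that lie in a short break of acetylation. They were selected on the positions in both peak lists: the CTCF summit lies outside every H3K27ac peak, and an H3K27ac peak edge lies within 500 bases on its left and another within 500 bases on its right. This rule found 674 of 36152 CTCF summits, 1.86% (Wilson 95% interval 1.73 to 2.01). The break between the flanking peaks is called a valley, and the 674 summits lay in 673 valleys.

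CTCF is a zinc finger protein that binds a long DNA motif, stops cohesin as it extrudes chromatin loops, and acts at insulators and loop anchors. Bound CTCF keeps its own site free of a nucleosome and leaves regularly placed nucleosomes on both sides. H3K27ac sits on histone tails of nucleosomes at active promoters and enhancers, so DNA without a nucleosome cannot carry it. At many active elements acetylation therefore appears as a pair of peaks with a valley over the bound factors. A valley in a peak list shows only where the caller found no enrichment, not how deep the signal fell. The narrowest break between any 2 H3K27ac peaks of the list was 77 bases, so narrower valleys could not be seen.

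The valleys over CTCF summits were about as wide as a CTCF peak. Their median width was 248 bases (binomial 95% interval of the median 235 to 262), with quartiles of 181 and 359.8 bases and a range from 77 to 978. Valleys of at most 500 bases held 609 of the 674 summits (90.4%), and both edges were within 250 bases for 494 (73.3%). The CTCF peaks themselves had a median width of 299 bases, against 276 for all CTCF peaks, and 405 (60.1%) were wider than their valley. The CTCF peak reached into both flanking H3K27ac peaks at 249 summits (36.9%) and into 1 of them at 322 (47.8%). At 103 summits (15.3%) the whole CTCF peak lay within the valley, and these valleys had a median width of 441 bases and a median CTCF fold enrichment of 8.87. Fold enrichment is the authors' linear ratio over local background, taken at the summit. Which input library, DU145 or LNCaP, served as background for each list is not given in the labels.

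Among breaks in acetylation of up to 1000 bases, those of 201 to 250 bases held a CTCF summit most often in this list. Longer gaps were not binned. Of 1922 such gaps 129 held a summit, 6.71% (Wilson interval 5.68 to 7.92). Narrower gaps held one less often: 30 of 1502 gaps of up to 100 bases did so, 2.0% (interval 1.40 to 2.84), and 98 of 2188 gaps of 151 to 200 bases, 4.48% (interval 3.69 to 5.43). Above 250 bases the share was 5.76% at 251 to 300 bases and lay between 2.24% and 5.90% in the wider bins of 50 bases up to 1000. The intervals of most of these wider bins overlapped each other. A narrow gap has fewer bases to hold a summit, and counted per base the order changed. There were 225.8 summits per Mb in gaps of up to 100 bases, 299.0 per Mb at 201 to 250 bases and 142.1 per Mb at 301 to 350 bases. Over all gaps of up to 500 bases, 608 of 13523 held a CTCF summit (4.50%, interval 4.16 to 4.86).

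**Figure D1:**
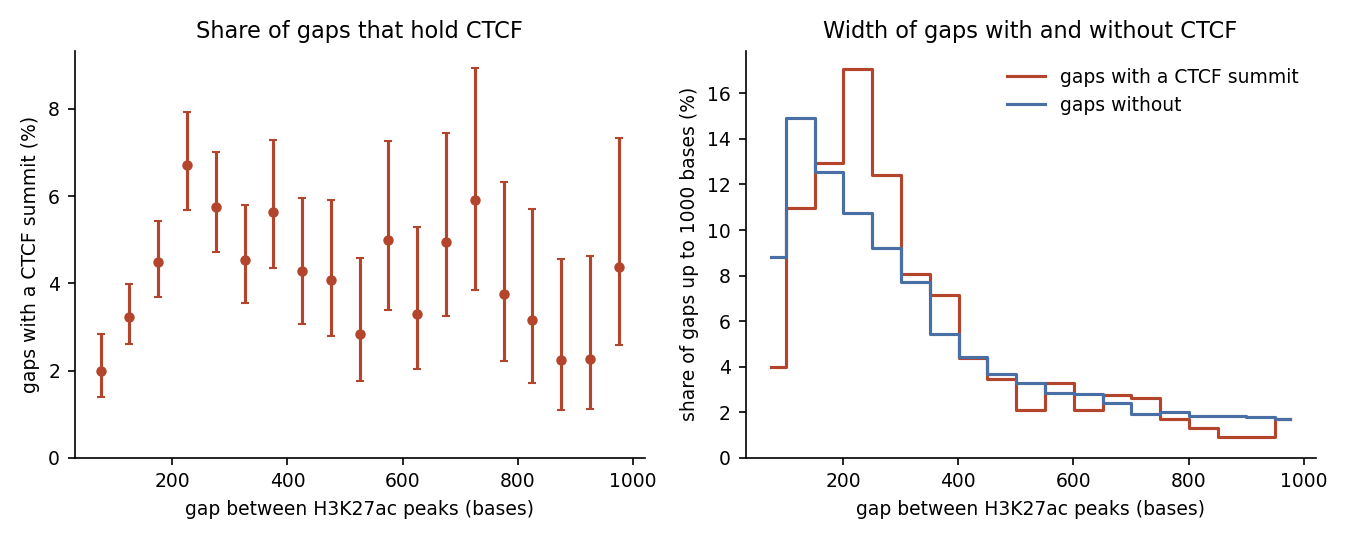
Left, share of gaps between neighbouring H3K27ac peaks that hold a CTCF summit (%), in bins of 50 bases of gap width, with Wilson 95% intervals. Right, widths of gaps up to 1000 bases with and without a CTCF summit, each as a share of its own total. Among gaps of up to 1000 bases the share is highest at 201 to 250 bases (6.71%), and it is 2.0% at up to 100 bases.

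Counted as gaps, those with a CTCF summit were less often very narrow than those without one. These shares do not allow for the fewer bases of a narrow gap. Per base, narrow gaps were not poor in CTCF summits, with 225.8 per Mb at up to 100 bases and 258.5 at 101 to 150, against 142.1 at 301 to 350. Among gaps of up to 500 bases, 111 of 608 with CTCF (18.3%, interval 15.4 to 21.5) were under 150 bases wide, against 3914 of 12915 without (30.3%). Widths of 150 to 300 bases were found in 323 of the gaps with CTCF (53.1%, interval 49.2 to 57.1) and in 5466 of those without (42.3%). The median width was 230.5 bases with CTCF and 213 over all gaps of up to 500 bases.

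CTCF summits were dense beside acetylated edges in general, and denser still at 51 to 100 bases from an edge that faced a short gap. A base in a short gap also lies near the opposite acetylated edge, and the part of that edge in the difference was not tested. In the first 50 bases outside an H3K27ac edge that faced a gap of 151 to 500 bases there were 173.5 summits per Mb (exact Poisson 95% interval 148.0 to 202.2). Edges that faced a gap of over 1000 bases had 142.9 per Mb in the same zone (interval 130.2 to 156.4), and these intervals overlapped. At 51 to 100 bases from the edge the densities were 216.9 (interval 187.4 to 249.8) and 143.5 per Mb (interval 130.8 to 157.0), and there the intervals did not overlap. Beside long gaps the density fell with distance, to 56.8 per Mb at 251 to 300 bases and 24.6 per Mb at 451 to 500 bases.

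Inside the acetylated peaks, CTCF summits became sparse within 200 bases of the edge on either kind of gap. Within the outer 50 bases of the acetylated peak there were 88.9 summits per Mb beside short gaps and 92.7 per Mb beside long gaps. At 151 to 200 bases inward the densities were 27.5 (interval 18.0 to 40.3) and 22.5 per Mb (interval 17.7 to 28.2). Over all H3K27ac peaks the density was 70.2 per Mb, so the outer 50 bases lay above the average of acetylated chromatin and the zone at 151 to 200 bases below it. Short and long gaps had overlapping intervals at each distance inside the peak.

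**Figure D2:**
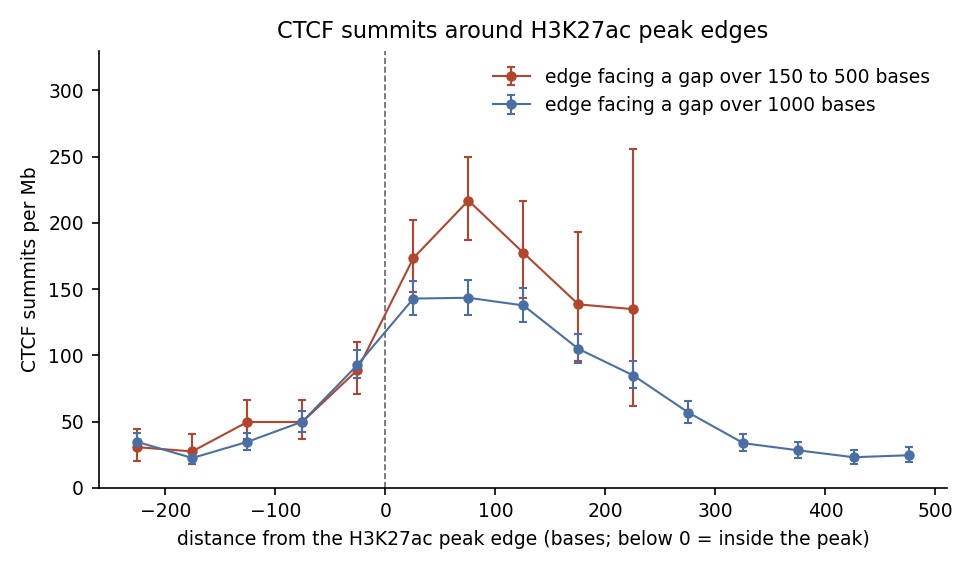
CTCF summits per Mb by distance from an H3K27ac peak edge (bases, bins of 50, negative inside the peak), for edges that face a gap of 151 to 500 bases and for edges that face a gap of over 1000 bases, with exact Poisson 95% intervals. Gap zones run to the middle of each gap. The curves lie together inside the peak and are apart at 51 to 100 bases outside it (216.9 against 143.5 per Mb).

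Measured from the centre of the gap, the same low zone appeared on both sides. Around the 5741 gaps of 151 to 300 bases there were 294.4 CTCF summits per Mb within 50 bases of the centre (interval 251.7 to 342.3). The density was 30.5 per Mb at 250 to 350 bases from the centre (interval 21.2 to 42.4), which lies inside the flanking peaks. It was 56.6 per Mb at 500 to 1000 bases (interval 50.6 to 63.1). Gaps of 77 to 150 bases gave 255.3, 34.4 and 67.5 per Mb in these zones. Gaps of 301 to 500 bases gave 169.9 per Mb at the centre, and their lowest value, 24.3 per Mb, lay at 350 to 500 bases.

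The summits tended to lie away from the walls of the valley, with no preference for the left or the right side of the chromosome. In valleys of up to 500 bases, where the rule allows every position, 344 of 609 summits lay in the central 50% of the valley (56.5%, interval 52.5 to 60.4). The outer 10% at each end, which together hold 20% of the bases, had 84 summits (13.8%, interval 11.3 to 16.8). Of all 674 summits, 344 lay nearer to the left edge (51%, interval 47.3 to 54.8). The median distance to the nearer edge was 65 bases and to the farther edge 177.5 bases, so a typical summit was not at the exact centre. Summits of higher CTCF fold enrichment were central somewhat more often, 185 of 306 (60.5%, interval 54.9 to 65.8), than those below the median, 159 of 303 (52.5%, interval 46.9 to 58.0). These intervals overlapped. With only peaks at a −log10 q of at least 10 in both lists, the central share was 52.3% (interval 45.7 to 58.9), which includes the share of bases there.

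**Figure D3:**
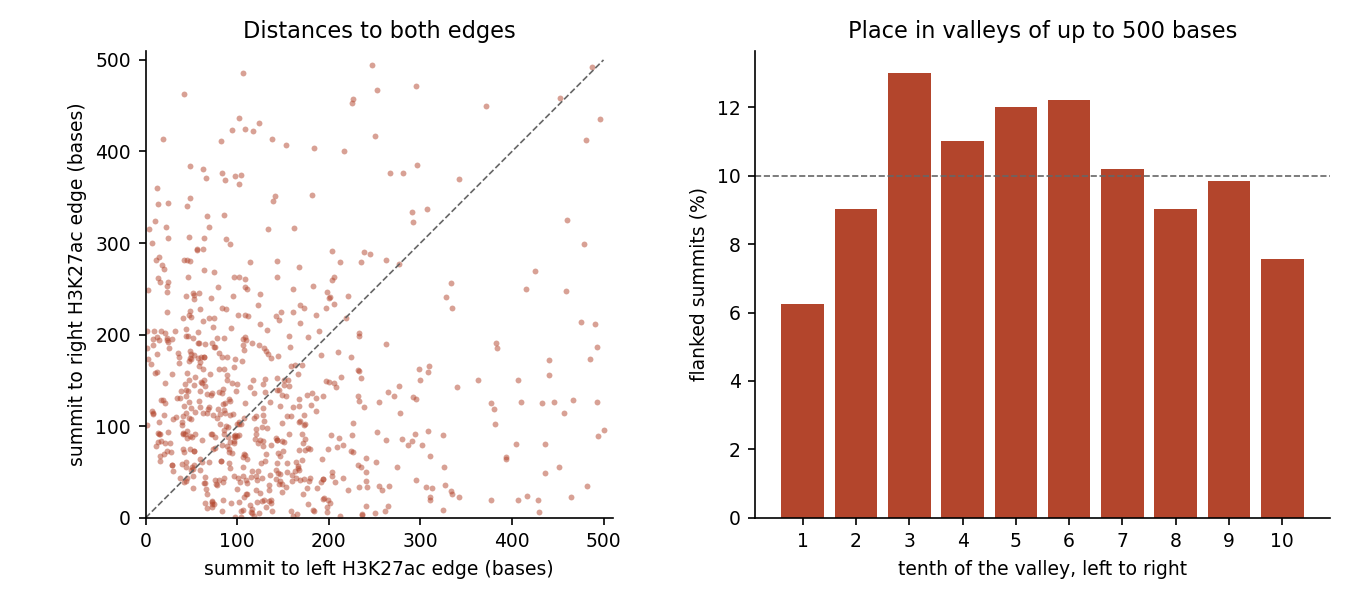
Left, distance of each of the 674 flanked CTCF summits to the left and to the right H3K27ac edge (bases), with the line of equal distances. Right, share of the 609 summits in valleys of up to 500 bases by place in the valley, in 10 equal parts from left to right, with the share of bases in each part as a dashed line. The first and last parts hold 6.24% and 7.55% of the summits.

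The 2 acetylated peaks beside a summit were usually unequal. The wider flank had a median width of 938.5 bases (interval 854 to 1004) and the narrower 430 bases (interval 415 to 448), and the median ratio within a pair was 1.83. Widths within 1.5 times of each other were found at 241 summits (35.8%), and widths over 3 times apart at 152 (22.6%). No flank was wider than 1 kb at 360 summits (53.4%), 1 flank was at 259 (38.4%), and both were at 55 (8.16%). The flank with the greater width also had the higher H3K27ac fold enrichment in 520 of 667 pairs that differed in both (78.0%). The summit leaned little towards either flank. The nearer edge belonged to the wider flank in 346 of 670 pairs (51.6%, interval 47.9 to 55.4) and to the flank of higher fold in 353 of 665 (53.1%, interval 49.3 to 56.8). Left and right flanks were alike as groups, with median widths of 601 and 611.5 bases.

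Flanking peaks were stronger than H3K27ac peaks at large. The 1337 distinct flanking peaks had a median fold enrichment of 5.69 (interval 5.51 to 5.96) from a median of 30 fragments at the summit, against 4.55 and 23 fragments for all 50364 H3K27ac peaks. Their median width was 606 bases against 566. Of them, 183 (13.7%, interval 11.9 to 15.6) exceeded the 90th percentile of the list, a fold of 16.8, against 9.99% of all H3K27ac peaks. Of the 1337, 780 had a −log10 q of at least 10 (58.3%, interval 55.7 to 61.0), against 43.4% of the list. Within pairs the stronger flank had a median fold of 9.61 and the weaker 4.38. Both flanks reached that q at 243 summits (36.1%), 1 flank did at 303 (45.0%) and neither did at 128 (19.0%).

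Set beside gaps of the same width without CTCF, the flanks differed in strength and hardly in width. For gaps of up to 500 bases the stronger flank had a median fold of 10.1 with a CTCF summit (n = 608 gaps, interval 9.45 to 11.0). Without one it was 7.45 (n = 12915 gaps), with gaps weighted to the same widths, a ratio of 1.35. The medians with CTCF were higher in each of the 5 bins of 100 bases. The intervals of the medians did not overlap between 101 and 300 bases, as at 101 to 200 bases (11.9, interval 10.8 to 13.9, against 9.0, interval 8.71 to 9.29). The weaker flank had a median fold of 4.50 with CTCF and 4.07 without. The wider flank measured 960 bases with CTCF and 951 without, and the narrower 433 and 459 bases. With only peaks at a −log10 q of at least 10, the ratio for the stronger flank was 1.12 (interval 0.987 to 1.27). That interval carries the counting error of the median with CTCF only, with the median without CTCF held fixed.

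Over all gaps of up to 500 bases the strengths of a pair were less even beside CTCF. The median ratio between the folds of both flanks was 1.82 with a CTCF summit (interval 1.69 to 1.94) and 1.58 without, weighted to the same gap widths. By gap width, the intervals of the medians did not overlap from 101 to 300 bases, as at 101 to 200 bases (2.10, interval 1.76 to 2.45, against 1.64, interval 1.60 to 1.67). They overlapped at up to 100 and at 401 to 500 bases, and at 301 to 400 bases both medians were 1.48. Folds over 3 times apart were found in 166 of 608 gaps with CTCF (27.3%, interval 23.9 to 31.0) and in 20.5% of the others after the same weighting. Unequal widths over 3 times apart were as frequent with CTCF (22.5%, interval 19.4 to 26.0) as without (22.1%). The stronger flank was above the 90th percentile of H3K27ac fold in 27.3% of gaps with CTCF and in 19.7% of those without, weighted.

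**Figure D4:**
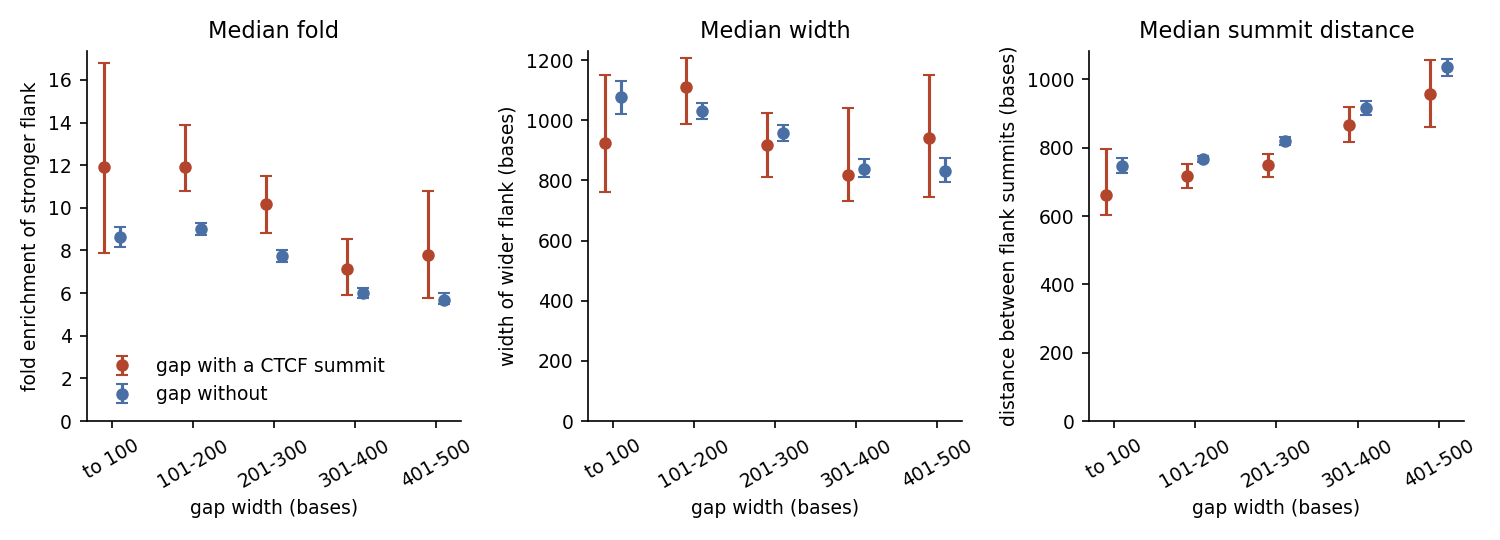
Medians over gaps with and without a CTCF summit, by gap width (bases), with binomial 95% intervals of the median: H3K27ac fold enrichment of the stronger flank, width of the wider flank (bases) and distance between the summits of both flanks (bases). Fold is higher with CTCF in each bin, the intervals of width overlap in all 5 bins, and the median distance between flank summits is shorter with CTCF in all 5.

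The nearer of both acetylation maxima lay about 300 bases from the CTCF summit, and both maxima lay closer together than in other gaps of up to 500 bases. The nearer flank summit was at a median of 303 bases from the CTCF summit (interval 297 to 309, quartiles 258.2 and 364.8), and at 505 of 674 summits (74.9%) it lay 200 to 400 bases away. It was under 150 bases away at 9 (1.34%). The rule puts the CTCF summit outside both flanks, and no H3K27ac peak of the list was narrower than 288 bases. Both limits bear on this distance, and no like distance was computed for gaps without CTCF. The farther flank summit was at a median of 500.5 bases. Leftward and rightward distances were alike, with medians of 387 and 376.5 bases. In gaps of up to 500 bases both flank summits were 780 bases apart with CTCF (interval 760 to 798) and 848 bases apart without, weighted to the same widths. At 201 to 300 bases the medians were 749 (interval 714 to 782) and 820.5 bases (interval 809 to 832). These intervals did not overlap, nor did those at 101 to 200 bases, while in the other 3 bins of 100 bases they did.

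CTCF fold enrichment was high over these summits as a set. The median was 13.3 (interval 12.5 to 14.2, range 2.86 to 40.6), from a median of 64.5 fragments at the summit, against 9.52 and 45 fragments over all CTCF peaks. It was not raised at the 103 whose whole CTCF peak lay outside H3K27ac, with a median of 8.87 (interval 8.01 to 10.7). Of the 674, 155 (23%, interval 20.0 to 26.3) exceeded the 90th percentile of the list, a fold of 19.8, against 9.98% of all CTCF peaks. A −log10 q of at least 10 was found at 597 (88.6%, interval 86.0 to 90.8), against 79.8%. The 2655 summits with an H3K27ac edge within 500 bases on 1 side only were close to them, with a median of 12.6 (interval 12.2 to 13.1) and 22% above the same percentile. The 3036 summits inside an H3K27ac peak had a lower median, 8.72 (interval 8.40 to 8.98). Summits more than 5000 bases from acetylation had 9.26 (interval 9.19 to 9.36). Local background at the genome-wide level, the lowest in the list, was found at 23.6% of the flanked summits and at 30.9% of all CTCF peaks. The median local background was 1.37 times the genome-wide level in both sets. The part of local background in the fold enrichments was not tested.

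**Figure D5:**
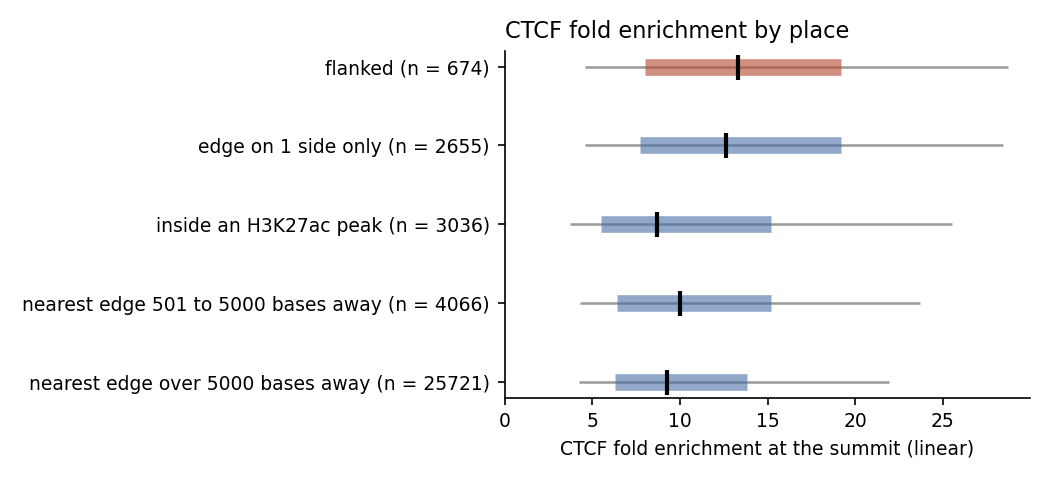
CTCF fold enrichment at the summit (linear ratio, authors' values) for CTCF peaks grouped by their place relative to H3K27ac peaks. Ticks are medians, thick bars quartiles and thin lines the 5th to 95th percentiles. Flanked summits (median 13.3) and summits with an edge on 1 side only (12.6) lie highest.

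Within the flanked set, CTCF fold enrichment was somewhat higher in narrow valleys. The median was 15.2 in valleys of 77 to 150 bases (n = 113, interval 13.4 to 16.8), 13.6 at 201 to 250 bases (n = 129) and 11.6 in valleys of over 500 bases (n = 65, interval 8.78 to 13.2). The stronger flank went the same way, with median H3K27ac folds of 11.7, 10.4 and 5.03. Split by CTCF fold into 4 parts of 168 or 169 summits, from low to high, the median valleys were 248, 290, 219.5 and 237 bases, with no steady trend. The stronger flanks had median folds of 8.94, 9.28, 10.5 and 11.0 in the same order.

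The strongest flanked summit lay on chromosome 19 at 10982140, in a CTCF peak from 10981976 to 10982403 with 154 fragments and a fold enrichment of 40.6. Its valley of 573 bases lay between a left flank of 784 bases with an H3K27ac fold of 5.80 and a right flank of 1125 bases with a fold of 27.2. The next, on chromosome 17 at 43275372 (fold 38.0, 148 fragments), sat 17 bases from the left edge of a valley of 145 bases, between small flanks of 383 and 288 bases with folds of 5.15 and 2.28. On chromosome 12 the summit at 56583431 (fold 37.3, 142 fragments) lay near the centre of a valley of 162 bases, 91 and 72 bases from its edges. Both of its flanks were wide and strong, with 1524 and 1089 bases and folds of 14.3 and 23.8. The summit on chromosome 9 at 136272113 (fold 36.7) had flanks of 399 and 481 bases with folds of 5.27 and 5.03. Strong CTCF thus occurred between weak and strong, equal and unequal flanks. The other 6 of the 10 strongest had CTCF folds from 34.3 to 36.4. They lay on chromosomes 16 (2390899), 17 (1552261), 15 (82824959 and 91499962), 19 (14667615) and 1 (156627448), in valleys of 181 to 784 bases.

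The 5 summits with the strongest weaker flank had CTCF folds of 11.0, 7.67, 5.64, 16.6 and 8.72. All but the 16.6 lay below the median of 13.3 for flanked summits. On chromosome 11 the summit at 66886493 (fold 11.0, 41 fragments) lay between flanks with H3K27ac folds of 30.3 and 34.7. On chromosome 5 the summit at 151151146 (fold 7.67, 41 fragments) lay between folds of 47.4 and 28.6. The widest pair was on chromosome 12, where a valley of 205 bases (122235084 to 122235288) separated acetylated peaks of 7858 and 8321 bases with folds of 27.2 and 69.8. The CTCF summit in it, at 122235211, had a fold of 5.64 from 21 fragments, less than the median of 64.5. A further pair of broad peaks, 6389 and 2719 bases, lay around the summit at 27179748 on chromosome 1 (CTCF fold 10.4), with unequal folds of 39.0 and 3.35.

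At the extremes of valley width, stronger flanks had folds from 12.9 to 28.6 in the ranked narrowest valleys and 3.83 to 15.2 in the ranked widest. These ranges overlapped. The narrowest valleys, of 77 bases, were on chromosome 17 (48104341 to 48104417, CTCF fold 23.9) and chromosome 2 (65357462 to 65357538, CTCF fold 6.55). Their stronger flanks had folds of 22.5 and 28.6. The widest, of 978 bases, was on chromosome 15 (64648337 to 64649314), with a CTCF fold of 4.39 and flanks of 8.67 and 2.94. The second widest, of 930 bases on chromosome 9 (130865612 to 130866541), had a CTCF fold of 10.2 and both flanks at 3.83.

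Most flanked summits had no other flanked summit within 10 kb. They are 1.86% of CTCF summits, so long distances between them go with their small number. Whether they cluster more or less than that number gives was not tested. The nearest other flanked summit was at a median of 474.8 kb, and 37 of 674 (5.49%, interval 4.01 to 7.48) had one within 10 kb. Chained at up to 10 kb they formed 637 single summits, 17 pairs and 1 group of 3. The group of 3 lay on chromosome 19 from 1218218 to 1221646, with CTCF folds from 5.67 to 12.1 and valleys of 155 to 821 bases. The summits at 1220808 and 1221646 shared the acetylated peak between them, 342 bases wide with a fold of 3.83. The longest pairs spanned 9.38 kb on chromosome 15 (63893134 and 63902510), 8.51 kb on chromosome 3 (52008138 and 52016649) and 7.97 kb on chromosome 2 (27593256 and 27601227). Only the valley on chromosome 20 from 5107181 to 5107519 held 2 flanked summits. They were 284 bases apart with folds of 10.0 and 8.04, each close to its own wall (22 and 34 bases). In all, 9 of 1337 flanking peaks (0.673%) had a valley with a flanked summit on each of their sides. With only peaks at a −log10 q of at least 10, the share with another flanked summit within 10 kb was 2.65%.

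CTCF summits of any kind, a larger list that includes the flanked summits, were closer by. Another CTCF summit lay within 2 kb of 122 flanked summits (18.1%, interval 15.4 to 21.2), against 11.0% of all CTCF summits (interval 10.6 to 11.3). The share was 17.2% for summits with an edge on 1 side only, 22.5% for those inside H3K27ac peaks and 8.27% for those over 5000 bases from acetylation. Of the 122 partners, 59 lay in a flanking H3K27ac peak, 56 outside acetylation in another place, 5 in another H3K27ac peak and 2 in the same valley. The median distance to the partner was 895 bases. Where the whole CTCF peak had to lie outside H3K27ac, the share with a partner was 9.71%.

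The surroundings of these gaps and of other short gaps held similar numbers of acetylated peaks, with fewer beside CTCF in some width bins. Within 12.5 kb of the centre of a gap of up to 500 bases the median number of H3K27ac summits, both flanks included, was 4 with CTCF and 5 without, weighted to the same widths. By gap width the medians were equal at up to 100 bases (5) and at 201 to 300 bases (4), and were 4 and 5 in the other 3 bins. No H3K27ac summit besides those of the flanks lay in this window at 165 of 608 gaps with CTCF (27.1%, interval 23.8 to 30.8) and at 20.3% of those without, weighted to the same widths.

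The share of CTCF summits that were flanked varied between chromosomes. For the share of gaps of up to 500 bases that held CTCF, most intervals included the 4.50% over all such gaps. Chromosome 17 had 60 flanked summits, 3.31% of its CTCF peaks (interval 2.58 to 4.24). Chromosome 22 had 22 (2.90%), chromosome 19 had 44 (2.82%) and chromosome 12 had 50 (2.70%). At the low end, 6 of 809 CTCF peaks on chromosome X were flanked (0.742%, interval 0.340 to 1.61) and 7 of 669 on chromosome 13 (1.05%). On chromosome Y the share was 0 of 131 (interval 0 to 2.85), where 3 counts of the total would be 2.29%. Counted over these gaps, chromosome 19 had a CTCF summit in 3.70% (interval 2.69 to 5.08). Chromosome 13 had one in 4.43% (interval 2.16 to 8.86) and chromosome 17 in 5.43% (interval 4.20 to 7.01). Chromosome 12 had 6.90% (interval 5.21 to 9.08), with its interval above 4.50%. Chromosome X, with 6 of 206 gaps, had 2.91% (interval 1.34 to 6.21). Outside the assembled chromosomes there were 5 flanked summits.

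Values just inside and just outside the limit of 500 bases are given as a description. The 53 summits with the farther edge at 401 to 500 bases had a median CTCF fold of 11.6, and the 28 with it at 501 to 600 bases had 10.9. Just inside were the summits on chromosome 19 at 3987967 (farther edge at 500 bases, CTCF fold 16.7), chromosome 9 at 130866107 (496 bases, fold 10.2) and chromosome 1 at 212769412 (494 bases, fold 12). Just outside were those on chromosome 19 at 39127607 (506 bases, fold 14.8), chromosome 4 at 76649308 (507 bases, fold 11.2) and chromosome 11 at 118796767 (515 bases, fold 12.3).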

How the data were processed

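Peak lists of 1 CTCF and 1 H3K27ac library were analysed. Bowtie, MACS2 and hg19 are named in the submitters' processing notes. For these, no version or parameter is given in the sources used here. For each peak the authors deposited positions, a summit offset, a score, a fold enrichment (linear ratio over local background), and −log10 p and q values; the smallest −log10 q was 1.31. Coordinates are hg19 and count from 1. A distance of 1 means the next base. Members, groups and comparisons were chosen with earlier results of these data known. Regions were named by rank (highest CTCF fold, narrowest and widest valley, strongest and widest flanks, shared valleys, groups, and the limit), leaving out chromosome 8 and unplaced contigs. Whole fragment numbers were solved from fold and −log10 p (tolerance 0.002; CTCF numbers scaled by 0.911), giving 10 to 308 fragments per CTCF summit and 10 to 568 per H3K27ac summit. Gaps without CTCF were weighted to the widths of gaps with CTCF in bins of 100 bases. Shares have Wilson, medians binomial order-statistic and densities exact Poisson intervals at 95%. They cover counting error only, since peaks are not replicates. No p-value was computed. Gene annotation and genome sequence of hg19 were not used here. Python 3.11.15, pandas 2.3.3 and scipy 1.17.1 were used, and functions were tested on simulated lists.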

Additional observations from a re-analysis of the deposited data

How the results depend on the processing

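Of 60 alternative values, 30 stayed within the interval of the reported value, or within 1.5 times for the number of summits. All 13 values on assembled chromosomes alone did so, as did both flank ratios with gap widths in bins of 50 bases and with gaps free of any CTCF peak base. With a −log10 q of 10 or more in both lists, none of 13 values stayed within these limits, and there were 226 flanked summits. Their medians were 14.9 for CTCF fold, 214.5 bases for valley width, 1164 and 606 bases for the wider and narrower flank, 14.5 for stronger flank fold and 828.5 bases between flank summits. The central share was 52.3%, another flanked summit within 10 kb 2.65%, another CTCF summit within 2 kb 14.2% and the share of gaps with CTCF 5.18%. The flank ratios were 0.934 for width and 1.12 for fold. With the whole CTCF peak outside H3K27ac, none of 10 values stayed within these limits, and 103 summits remained. They lay in the central 50% in 100% of valleys of up to 500 bases, which this definition favours by construction. Their medians were 8.87 for CTCF fold, 441 bases for valley width, 817 and 402 bases for the flanks, 6.12 for stronger flank fold and 1009 bases between flank summits. Another flanked summit lay within 10 kb of 1.94% and another CTCF summit within 2 kb of 9.71%. Limits of 250 and 1000 bases gave median valleys of 210 and 291 bases, flank summits 746 and 893 bases apart and stronger flank folds of 10.5 and 8.63. At 1000 bases 7.86% had another flanked summit within 10 kb. The 2 alternatives on motifs and gene starts were not run, since no genome or annotation of hg19 was used. The lowest fragment number was 12 at a flanked summit and 11 at a flanking peak, which limits how finely single peaks can be ranked.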
